A study of Mus musculus with 14 samples.

Results

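The genes described here are 10 that endothelial cells of the liver are known to express, which are Stab1, Stab2, Lyve1, Clec4g, Pecam1, Cdh5, Emcn, Kdr, Flt1 and Tek. They were chosen by symbol, through the RefSeq accession that each array probe carries, and they are 10 of the 19751 genes that had a named probe. Liver RNA of CD-1 mice, an outbred strain, was compared between males (M) and females (F) aged 3, 4 or 8 wk, with no other treatment or allele. There were 6 groups with 2 RNA pools each, and a pool held liver RNA of 5 mice at 3 wk and of 6 mice at 4 and 8 wk. On each of 14 dual-colour arrays a pool was hybridized against a pool of another group, and each of the 7 comparisons had 2 arrays with separate pools and exchanged dyes. Males were compared with females at each age (M8/F8, M4/F4 and M3/F3, named by sex and age in wk), and 8 wk mice with younger mice of their sex (F8/F4, M8/M4, F8/F3 and M8/M3). The sex comparisons address differences between male and female liver before and after puberty, and the age comparisons address development from the weaning period to young adulthood within each sex. Values are the log2 ratio of the first group over the second, so a negative sex ratio means a higher level in female liver and a negative age ratio a lower level at 8 wk. The second array of a comparison is a separate pair of pools, so the spread between the 2 arrays holds the differences between pools as well as those between arrays.

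Liver sinusoidal endothelial cells line the capillaries of the liver. They are fenestrated, lack an organized basement membrane, and clear macromolecules from blood through scavenger receptors. Stab1 and Stab2 encode stabilin scavenger receptors for hyaluronan and modified proteins, Lyve1 encodes a hyaluronan receptor, and Clec4g encodes a C-type lectin of sinusoidal cells. Pecam1 and Cdh5 encode adhesion proteins of endothelial junctions and Emcn encodes a surface sialomucin, all 3 of them found on endothelium in general. Kdr and Flt1 encode receptors of vascular endothelial growth factor (VEGF), and Tek encodes the receptor of the angiopoietins.

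All 10 genes were well above background in both channels on all 14 arrays, as were 12305 of the genes with a probe, and no spot was saturated. Between 55.2% and 77.2% of the spots of a channel were well above background (median 66.5%). The Y-linked gene Ddx3y had log2 ratios of 5.81 to 7.24 on the 6 arrays of the sex comparisons, and the X-inactivation transcript Xist had log2 ratios of -6.67 to -5.10, so the direction of the ratios on all 6 fits the sexes in the labels. The direction on the 8 arrays of the age comparisons was taken from the dyes that the labels give, and with it all 12 genes of a mitosis list, which dividing cells of the growing liver express, were lower at 8 wk on each of the 8. The level of a gene in whole liver RNA depends on the number of cells that express it and on the RNA in each, and fewer endothelial cells and less RNA per cell cannot be told apart here. The sex comparisons and M8/M3 lay on slides scanned on 1 day and the other comparisons on slides scanned on another day, so the ratio on each array is a within-slide value. The pools of every group, and most of all the 8 wk pools, serve in more than 1 comparison, so the comparisons are not independent of each other. The variance between pools was estimated at 4.58 times that between arrays, while the reported fit treats the arrays as independent.

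A gene was taken to pass the test where the adjusted p of limma's moderated test was below 0.05, and to be called where its ratio was in addition above 1.5-fold in either direction. In males, 4 of the 10 genes passed as lower at 8 wk in M8/M3, against 20.3% of all genes tested, and 4 in M8/M4, against 14.8%. In females, 5 passed as lower in F8/F3, against 16.6% of all genes, and 1 in F8/F4, against 10.7%. These counts depend on the fit. Over 9 other fits of the 14 arrays, every pass in M8/M3 but that of Flt1 held throughout, and in M8/M4 only that of Cdh5. In F8/F3 those of Lyve1 and Cdh5 held throughout, and in F8/F4 that of Cdh5. Several passes were also lost when single arrays were left out, as given by gene below. On the probe of highest signal, none of the 10 passed as higher at 8 wk (a second probe of Kdr did so in M8/M3), while 21.7% (M8/M3) and 14.8% (M8/M4) of all genes did so in males, and 17% (F8/F3) and 10.6% (F8/F4) in females. Lyve1 alone was also beyond the ratio threshold. It was called lower in M8/M3, as were 10% of all genes, in M8/M4, with 6.38%, and in F8/F3, with 6.64%, and none of the 10 was called in F8/F4, against 3.72% of all genes. Between the sexes, 1 of the 10 genes, Stab2, passed as lower in males at each age, against 1.63% of all genes at 3 wk (M3/F3), 4.46% at 4 wk (M4/F4) and 11.5% at 8 wk (M8/F8). None was called in a sex comparison, where 0.337%, 0.971% and 3.74% of all genes were called lower in males. The median log2 ratio of the 10 genes against 3 wk was -0.22 in males and -0.23 in females, and against 4 wk it was -0.14 in males and -0.15 in females, while the medians of all genes tested lay between 0.013 and 0.019. In the sex comparisons the medians of the 10 were -0.028 at 3 wk, -0.021 at 4 wk and -0.064 at 8 wk. Single arrays moved several of these medians. Without the second M8/M3 array the median of M8/M3 was -0.137, without the second M8/M4 array that of M8/M4 was -0.068, and without the first or the second F8/F4 array that of F8/F4 was -0.23 or -0.053. The age medians stayed below 0 in all 14 fits that each left out 1 array. That of M3/F3 was -0.099 without the first M3/F3 array, and that of M4/F4 was -0.073 without the first M4/F4 array and 0.012 without the second.

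**Figure D1:**
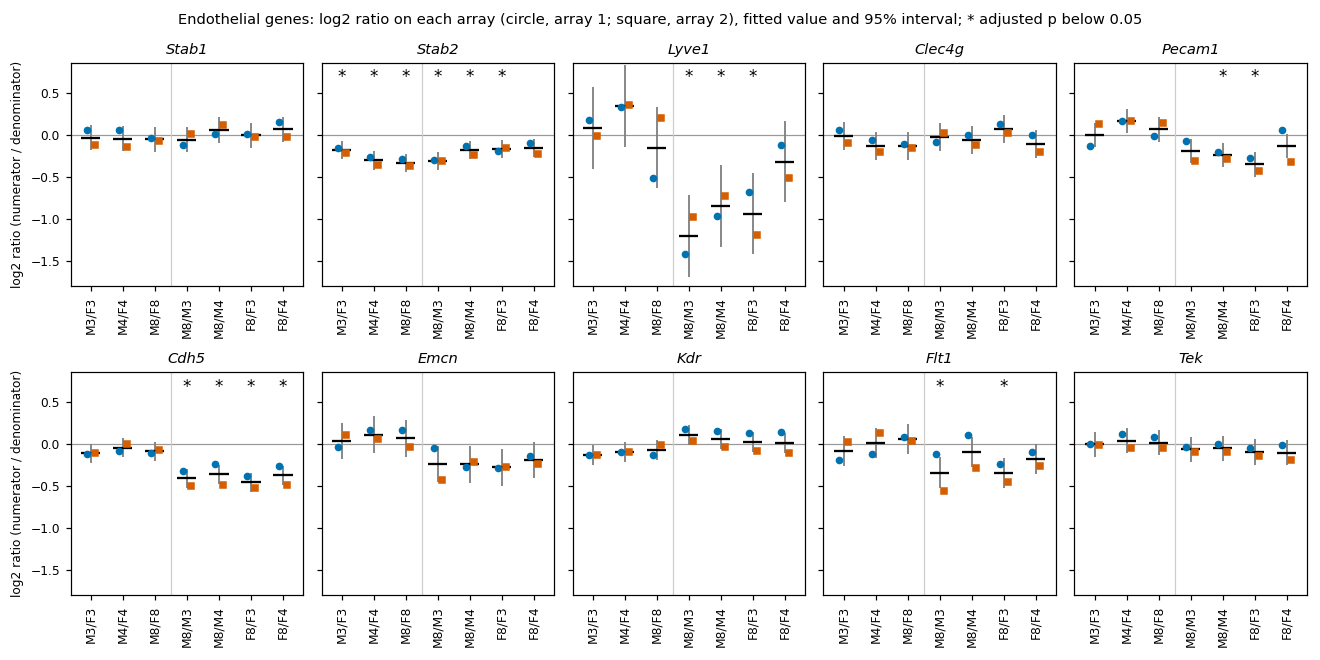
Log2 ratio of each of the 10 genes in the 7 comparisons, with array 1 as a circle, array 2 as a square, the fitted value as a bar and its 95% confidence interval as a vertical line. An asterisk marks an adjusted p below 0.05, which Stab2 reaches in all 3 sex comparisons, Cdh5 in all 4 age comparisons and Lyve1 with the lowest fitted ratio, -1.20 in M8/M3.

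Stab2 was higher in female than in male liver at every age. The log2 ratio of male over female was -0.16 and -0.21 on the 2 arrays at 3 wk, -0.26 and -0.36 at 4 wk, and -0.29 and -0.38 at 8 wk. All 6 arrays had the lower level in the male pool. The fitted log2 ratios were -0.19 ± 0.05 (SE, n = 2 arrays, limma adjusted p = 0.0352) at 3 wk, -0.31 ± 0.05 (limma adjusted p = 0.00552) at 4 wk and -0.33 ± 0.05 (limma adjusted p = 0.00408) at 8 wk, so the female level was 1.14, 1.24 and 1.26 times the male level. None of these differences reached 1.5-fold.

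Stab2 was also lower at 8 wk than at 3 wk in both sexes. In males the log2 ratio M8/M3 was -0.31 on both arrays, with a fitted value of -0.31 (limma adjusted p = 0.00551), and M8/M4 was -0.14 and -0.24, with a fitted value of -0.19 (limma adjusted p = 0.0357). In females F8/F3 was -0.20 and -0.16, with a fitted value of -0.18 (limma adjusted p = 0.0454), and F8/F4 was -0.10 and -0.23, with a fitted value of -0.16 that did not pass (limma adjusted p = 0.0572). The ratio was below 0 on all 8 arrays. The change from 3 to 8 wk differed between males and females by -0.13 on the log2 scale (95% confidence interval -0.28 to 0.018, limma adjusted p = 0.343), which did not pass, and the change from 4 to 8 wk by -0.024 (interval -0.18 to 0.13). The smaller of these ratios depend on the fit. M3/F3 no longer passed when the pools shared between arrays entered the covariance or when p-values were adjusted within each comparison, and M8/M4 and F8/F3 no longer passed with shared pools or after normexp and loess. F8/F3 also no longer passed when only probes well above background in a group were fitted. When each array was left out in turn, M8/F8 passed in all 14 fits, M4/F4 and M8/M3 in 13, M3/F3 in 8, M8/M4 in 6 and F8/F3 in 2.

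Across the 12 pools, log2 levels of Stab2 (normalized intensity within its own probe) were 14.41 and 14.37 in F3, 14.30 and 14.41 in F4, 14.26 and 14.18 in F8, 14.26 and 14.25 in M3, 14.06 and 14.11 in M4, and 13.97 and 13.89 in M8. Both female pools lay above both male pools at 4 and at 8 wk, and also at 3 wk. The order of the group means was F3, F4, M3, F8, M4 and M8. Of neighbours in that order, F3 and F4 overlapped, as did M3 and F8, while the pools of the other neighbours did not overlap.

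The paralog Stab1 stayed close to a ratio of 1. Its log2 ratios on the 14 arrays ran from -0.14 to 0.15, with fitted sex ratios of -0.036 at 3 wk, -0.048 at 4 wk and -0.055 at 8 wk, and none of the 7 passed (lowest limma adjusted p 0.685). In M8/F8, where Stab2 had its largest sex ratio, the interval for Stab1 was -0.21 to 0.096. The group means of Stab1 spanned 0.12 on the log2 scale, and every neighbouring pair of groups overlapped. The 250 bases before the start of both genes are shown because the stabilins are the closest relatives among the 10 and had different sex ratios (RefSeq, GRCm38.p6, on the strand of the gene). Capitals mark AGGAAG or its reverse complement, letters at the core of many binding sites of ETS factors, a family that endothelial genes are known to use. Stab1 lies on the minus strand at chr14:31168642-31168891 and Stab2 on the minus strand at chr10:87007943-87008192.
Stab1: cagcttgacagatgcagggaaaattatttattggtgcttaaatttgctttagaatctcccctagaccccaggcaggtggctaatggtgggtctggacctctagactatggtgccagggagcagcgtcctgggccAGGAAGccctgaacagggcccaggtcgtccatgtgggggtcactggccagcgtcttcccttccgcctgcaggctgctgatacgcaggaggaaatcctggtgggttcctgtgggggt
Stab2: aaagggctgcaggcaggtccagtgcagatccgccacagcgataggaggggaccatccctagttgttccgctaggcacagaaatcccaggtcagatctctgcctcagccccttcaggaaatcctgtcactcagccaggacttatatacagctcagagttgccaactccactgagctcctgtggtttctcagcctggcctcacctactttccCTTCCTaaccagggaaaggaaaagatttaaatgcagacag
Each of the windows holds 1 match, which begins 116 bases before the start in Stab1 and 40 bases before it, on the other strand, in Stab2. Of 32851 promoter windows of the same length in that table, 29.5% hold these letters on either strand, so a match is a description of the window only. Of the 10 genes, 7 had a promoter in the table and 5 of those 7 windows had a match (Stab1, Stab2, Clec4g, Emcn and Flt1, but not Kdr and Tek). Lyve1, Pecam1 and Cdh5 had no entry. The GATA letters AGATAA, searched on both strands in the same way, were in none of the 7 windows, against 9.99% of all promoter windows.

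Lyve1 had the largest change with age of the 10 genes. M8/M3 was -1.43 and -0.98 on the log2 scale, F8/F3 was -0.68 and -1.20, and M8/M4 was -0.97 and -0.73. The level at 8 wk was lower on all 6 of these arrays. The fitted ratios were -1.20 ± 0.21 (SE, n = 2 arrays, limma adjusted p = 0.00989) for M8/M3, -0.94 ± 0.21 (limma adjusted p = 0.0252) for F8/F3 and -0.85 ± 0.21 (limma adjusted p = 0.0361) for M8/M4, which correspond to 2.30-fold, 1.92-fold and 1.80-fold lower levels. F8/F4 was -0.12 and -0.52, with a fitted value of -0.32 that did not pass (limma adjusted p = 0.41). The calls rest on few arrays. That in M8/M3 was lost without the first M8/M3 array (-0.88, limma adjusted p = 0.108) and that in F8/F3 without either F8/F3 array (-1.17 with limma adjusted p = 0.0636, and -0.70 with limma adjusted p = 0.221). That in M8/M4 was lost with a replicate block (limma adjusted p = 0.0549), with the slide as a block (limma adjusted p = 0.0606) and in 10 of the 14 fits that each left out 1 array, whose adjusted p reached 0.271.

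Pool levels of Lyve1 show the steps. The log2 levels were 12.64 and 12.57 in M3, 12.48 and 12.59 in F3, 12.28 and 12.30 in M4, 11.97 and 11.95 in F4, 11.86 and 11.48 in F8, and 11.33 and 11.66 in M8. The 3 wk pools of both sexes overlapped and lay above all 4 wk pools, and the 4 wk pools lay above all 8 wk pools. At 4 wk both male pools were above both female pools, and M4/F4 was 0.33 and 0.35 on its 2 arrays, but the fitted 0.34 did not pass (limma adjusted p = 0.377). At 8 wk the 2 arrays of M8/F8 disagreed in sign (-0.51 and 0.20), and the pools of the 2 sexes overlapped. Of the 10 genes, Lyve1 had the widest spread between the arrays of a comparison, with an SD of 0.50 in M8/F8 against a median SD of 0.072 for the 10 genes. The difference between the sexes in the change from 3 to 8 wk was -0.26 with an interval of -0.95 to 0.42 (limma adjusted p = 0.748). In the change from 4 to 8 wk it was -0.53 with an interval of -1.22 to 0.16 (limma adjusted p = 0.499). Neither passed, and both intervals are wide and hold values on either side of 0.

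**Figure D2:**
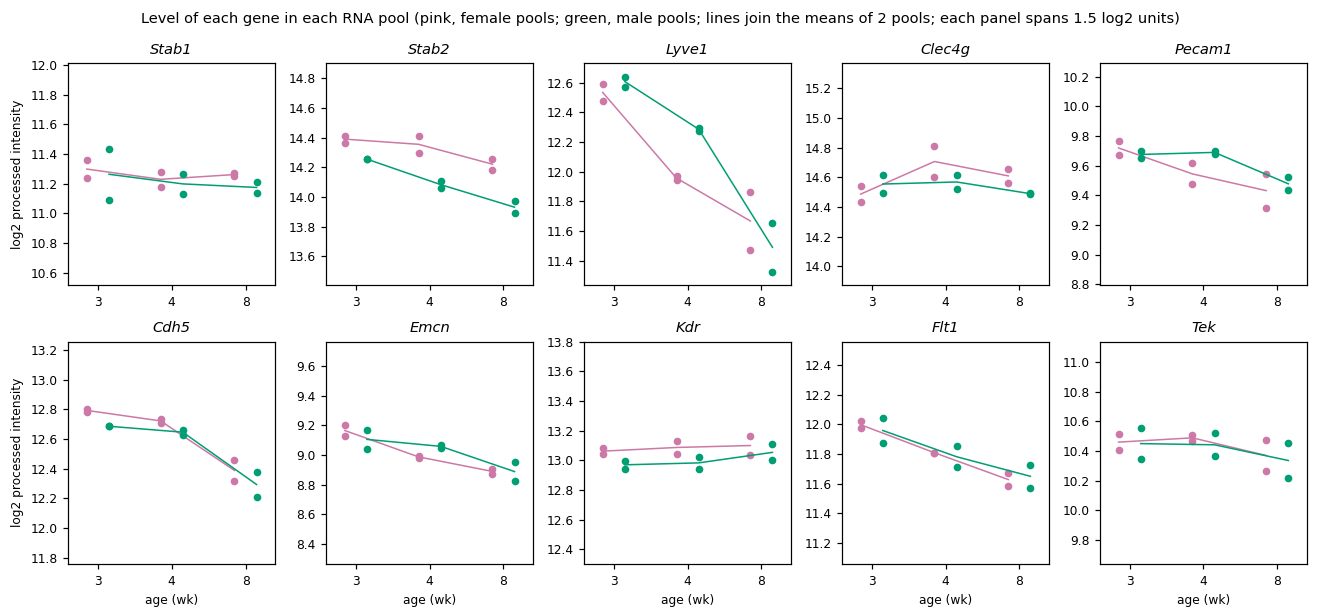
Log2 intensity of each gene after normalization (labelled processed intensity on the axis) in each of the 12 RNA pools by age. Female pools are in pink and male pools in green, with lines through the mean of the 2 pools of a group. Each panel spans the same number of log2 units, and levels are comparable within a panel only. All 8 wk pools lie below all 3 wk pools for Lyve1, Pecam1, Cdh5, Emcn and Flt1. The share of all genes with such pools was not counted, so this describes the panels only.

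Clec4g, the remaining receptor of the sinusoidal group, did not pass in any comparison. Its log2 ratios on the 14 arrays lay between -0.21 and 0.12, and its fitted ratios in the age comparisons were -0.030 (M8/M3) and -0.067 (M8/M4) in males, and 0.070 (F8/F3) and -0.11 (F8/F4) in females. The male over female ratio was -0.13 at both 4 wk (limma adjusted p = 0.302) and 8 wk (limma adjusted p = 0.307), below 0 on all 4 arrays. The sinusoidal receptors thus had unlike values with age, with Lyve1 at -1.20, Stab2 at -0.31, Stab1 at -0.060 and Clec4g at -0.030 in M8/M3.

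Among the genes of endothelium in general, Cdh5, which encodes VE-cadherin of adherens junctions, was lower at 8 wk in all 4 age comparisons. The log2 ratios on the arrays were -0.32 and -0.51 for M8/M3, -0.24 and -0.49 for M8/M4, -0.39 and -0.53 for F8/F3, and -0.27 and -0.49 for F8/F4. All 8 arrays had the lower level at 8 wk, and in each comparison the second array had the lower ratio. The fitted ratios were -0.41 (limma adjusted p = 0.00204), -0.37 (limma adjusted p = 0.00324), -0.46 (limma adjusted p = 0.00137) and -0.38 (limma adjusted p = 0.00287), each with an SE of 0.047 and n = 2 arrays, which is 1.33-fold, 1.29-fold, 1.37-fold and 1.30-fold lower. These 4 ratios passed in all 9 other fits that gave an adjusted p over the 14 arrays and in all 14 fits that each left out 1 array. They stayed short of 1.5-fold, so none was called. The dye term of Cdh5 did not pass (limma adjusted p = 0.0662).

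The sex ratios of Cdh5 were -0.12 and -0.11 on the arrays at 3 wk, -0.090 and -0.004 at 4 wk, and -0.11 and -0.073 at 8 wk. All 6 were below 0, but none of the 3 fitted ratios passed (limma adjusted p = 0.175 at 3 wk, 0.663 at 4 wk and 0.275 at 8 wk). The change from 3 to 8 wk differed between the sexes by 0.046 (interval -0.11 to 0.20), and from 4 to 8 wk by 0.012 (interval -0.14 to 0.17). By level, the order of the groups was F3, F4, M3, M4, F8 and M8. Pools of neighbouring groups did not overlap except those of F8 and M8, and the 4 pools of 8 wk mice (12.21 to 12.46) lay below the 8 younger pools (12.63 to 12.81).

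Pecam1, the platelet and endothelial adhesion molecule, passed in 2 age comparisons. F8/F3 was -0.28 and -0.44 on the arrays, with a fitted value of -0.36 (limma adjusted p = 0.00994), and M8/M4 was -0.20 and -0.29, with a fitted value of -0.25 (limma adjusted p = 0.0393). M8/M3 was -0.082 and -0.31, with a fitted value of -0.20 that did not pass (limma adjusted p = 0.0813). In F8/F4 the arrays differed in sign, at 0.057 and -0.32. M4/F4 was 0.16 on both arrays (limma adjusted p = 0.142). Neither pass of Pecam1 held in all fits, since both were lost without the dye term (limma adjusted p = 0.207 for M8/M4 and 0.072 for F8/F3). That in M8/M4 was also lost with a replicate block (limma adjusted p = 0.0521), with the slide as a block (limma adjusted p = 0.089) and with shared pools in the covariance (limma adjusted p = 0.0667). When each array was left out in turn, F8/F3 passed in 12 of 14 fits and M8/M4 in 4.

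Pecam1 is also known from platelets and leukocytes, and markers of platelets moved in the same comparisons. Of the 7 platelet genes listed, 5 passed as lower at 8 wk in each age comparison, and Pf4, a platelet chemokine, had fitted log2 ratios against 3 wk of -1.63 in males and -1.48 in females, and against 4 wk of -0.89 in males and -0.91 in females. The summed intensity of the platelet list was 4933 to 6203 in the 3 wk pools, 3218 to 3566 in the 4 wk pools and 1997 to 2199 in the 8 wk pools. Its part in the ratio of Pecam1 was not tested.

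Emcn did not pass, although its 4 fitted age ratios lay between -0.28 and -0.20. The arrays gave -0.048 and -0.43 for M8/M3, -0.27 and -0.22 for M8/M4, -0.29 and -0.27 for F8/F3, and -0.15 and -0.24 for F8/F4. All 8 were below 0, and the lowest adjusted p was 0.0974, in F8/F3 (limma). All 8 wk pools lay below all 3 wk pools.

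The VEGF receptors had unlike ratios with age. Flt1 was lower at 8 wk than at 3 wk, with -0.13 and -0.56 on the arrays of M8/M3 and -0.24 and -0.46 on those of F8/F3. The fitted values were -0.34 (limma adjusted p = 0.0256) and -0.35 (limma adjusted p = 0.024), or 1.27-fold lower in both sexes. Against 4 wk the values were -0.096 in M8/M4, where the arrays differed in sign (0.10 and -0.29), and -0.18 in F8/F4 (limma adjusted p = 0.526 and 0.176). The passes of Flt1 were lost without the dye term (limma adjusted p = 0.164 for M8/M3 and 0.157 for F8/F3), and the dye term of Flt1 was the one nearest the threshold among the 10 genes (limma adjusted p = 0.0541). With each array left out in turn, M8/M3 passed in 11 of 14 fits and F8/F3 in 12.

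Kdr did not pass in any comparison on its brighter probe, which was spotted 10 times on each array. Its log2 ratios were 0.17 and 0.034 for M8/M3, 0.15 and -0.043 for M8/M4, 0.13 and -0.082 for F8/F3, and 0.14 and -0.12 for F8/F4, with fitted values of 0.10, 0.051, 0.023 and 0.013. The SD over the 10 spots within an array was 0.010 to 0.034 (median 0.020), less than the difference between the arrays of any of these comparisons. A second probe of Kdr gave 0.18 and 0.21 in M8/M3, and its fitted value of 0.19 passed as higher at 8 wk (limma adjusted p = 0.0259), while its value in F8/F3 was 0.15 (limma adjusted p = 0.0629). So neither probe of Kdr showed the lower level that Flt1 had. In the sex comparisons the brighter probe was at -0.13 at 3 wk, -0.099 at 4 wk and -0.072 at 8 wk, below 0 on all 6 arrays and not past the test, whereas the second probe was at 0.014, -0.002 and 0.040.

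The 250 bases before the start of Flt1 and of Kdr are shown because these receptors share a ligand and had different age ratios (RefSeq, GRCm38.p6, both on the minus strand, with AGGAAG or its reverse complement in capitals). Flt1 lies at chr5:147726012-147726261 and Kdr at chr5:75978456-75978705.
Flt1: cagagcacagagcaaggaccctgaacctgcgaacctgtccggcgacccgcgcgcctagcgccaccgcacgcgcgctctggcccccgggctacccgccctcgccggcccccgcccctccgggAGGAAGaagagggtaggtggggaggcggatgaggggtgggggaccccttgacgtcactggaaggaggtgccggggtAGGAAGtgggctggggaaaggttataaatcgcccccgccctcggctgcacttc
Kdr: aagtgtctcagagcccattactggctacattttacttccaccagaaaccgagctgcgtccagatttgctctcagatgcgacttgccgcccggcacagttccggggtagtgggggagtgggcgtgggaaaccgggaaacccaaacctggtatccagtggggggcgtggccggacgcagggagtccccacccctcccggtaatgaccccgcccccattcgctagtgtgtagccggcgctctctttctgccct
Flt1 holds 2 matches, which begin 129 and 53 bases before the start, and Kdr holds none. The letters TATAAA are in the Flt1 window, 31 bases before the start, and not in that of Kdr, and 12.4% of all promoter windows hold them on either strand. The GC box letters GGGCGG are in both windows only as their reverse complement, CCGCCC in the printed letters, 3 times in Flt1 and 2 times in Kdr. Of all windows, 32.7% hold at least 1 match on either strand. The absence of a match says only that these letters are not in the window.

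Tek did not pass in any comparison. Its fitted log2 ratios were between -0.11 and 0.036 in the 7 comparisons, and its arrays ran from -0.20 to 0.12. In F8/F3 it was at -0.055 and -0.14 on the arrays (limma adjusted p = 0.408). Every neighbouring pair of groups overlapped in level.

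The ligands of these receptors were read from a list of 30 angiogenic genes. Among the VEGF ligands, named after their values were seen, Vegfb rose from 3 to 8 wk in males (0.42, limma adjusted p = 0.00265) and females (0.35, limma adjusted p = 0.00552), and Vegfc fell (-0.47, limma adjusted p = 0.00457, and -0.44, limma adjusted p = 0.00595). Vegfa, the main ligand of Kdr, rose in F8/F3 (0.32, limma adjusted p = 0.00702) and was at 0.16 in M8/M3 (limma adjusted p = 0.087). Vegfd was at 0.18 in both, and Pgf, a ligand of Flt1, at 0.015 and 0.074. Angpt1, the activating ligand of Tek, also named after its values were seen, was lower in male than in female liver at 8 wk (-0.87, limma adjusted p = 0.000852) and fell in M8/M3 (-0.70, limma adjusted p = 0.00183), while Tek itself was at 0.013 and -0.066 in the same comparisons. Of the list, 4 genes passed as higher and 9 as lower in M8/M3, of 28 that could be tested, against 21.7% and 20.3% of all genes. In F8/F3 5 passed as higher and 5 as lower of 29, shares close to the 17% and 16.6% of all genes. The largest called ratios in M8/M3 were those of Aplnr, the apelin receptor (-2.92 and -0.66 on the arrays), Apln, its ligand (-2.26 and -0.63), and Esm1, an endothelial proteoglycan (1.25 and 1.59). For Aplnr and Apln 1 of the 2 arrays was well above background at 8 wk, so their ratios are imprecise.

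The other lists of endothelial genes place these values. Of 33 further genes of endothelium in general, 15 passed as lower and none as higher in M8/M3 (median -0.32), and 12 in F8/F3 (median -0.24). Against 4 wk, 9 passed as lower in males (median -0.18) and 8 in females (median -0.11), and none as higher. Those called with the largest ratio in M8/M3 were Fli1, an ETS transcription factor (-0.70, limma adjusted p = 0.000117), Icam2, an adhesion molecule (-0.70, limma adjusted p = 0.000246), and Cd93, a surface glycoprotein (-0.64, limma adjusted p = 0.00211). In F8/F3 they were at -0.61, -0.61 and -0.64 and were called as well. Cdh5, Pecam1 and Flt1, at -0.41, -0.20 and -0.34 in M8/M3, lay within the range of that list. Of 16 further sinusoidal genes, 4 passed as higher and 2 as lower in M8/M3, with a median of -0.057, and 1 as higher and 1 as lower in F8/F3, with a median of -0.039. Gpr182, an orphan receptor, fell by 0.65 on the log2 scale in M8/M3 (limma adjusted p = 0.00345), and Wnt9b, a Wnt ligand that sinusoidal and central vein endothelium supplies to hepatocytes, rose by 0.62 (limma adjusted p = 0.00372). In M8/F8, 1 of 15 genes of the sinusoidal list and 2 of 33 of the general list passed as lower in males, a smaller share than the 11.5% of all genes, and none passed as higher.

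**Figure D3:**
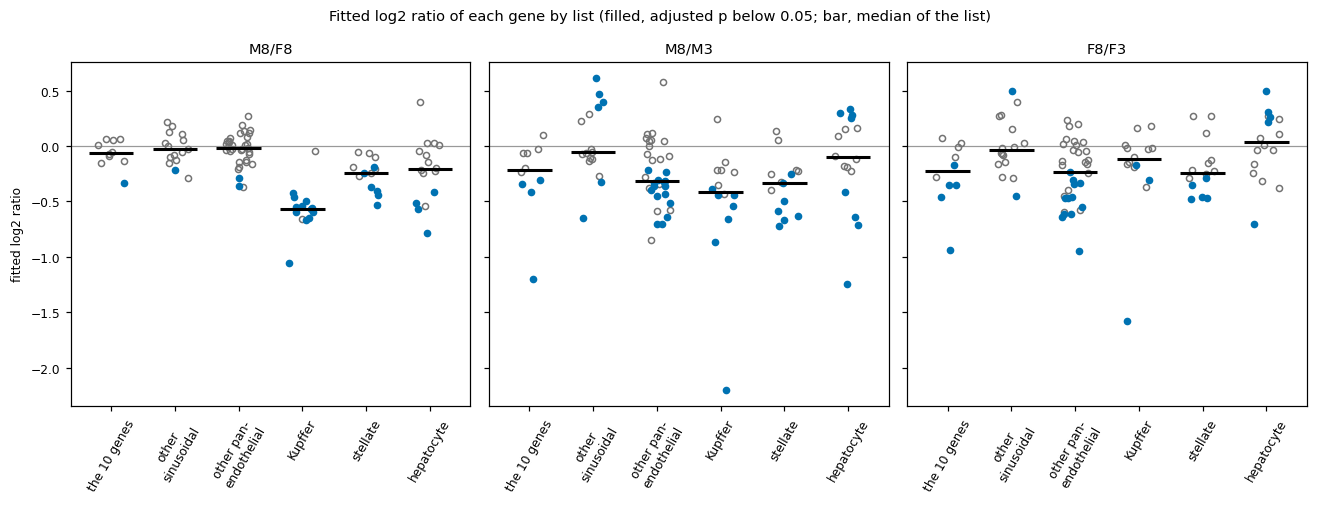
Fitted log2 ratio of each gene that could be tested, by list, in M8/F8, M8/M3 and F8/F3, with genes past an adjusted p of 0.05 filled and the median of each list as a bar. The medians of the general endothelial list lie at -0.32 and -0.24 in the age comparisons, and that of the Kupffer cell list at -0.57 in M8/F8.

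Markers of several other liver cells were read in the same comparisons. Of 14 Kupffer cell genes, 3 passed as lower in males at 3 wk, 6 at 4 wk and 12 at 8 wk, with medians of -0.23, -0.26 and -0.57, in the comparisons in which Stab2 was lower in males. Clec4f, a lectin that defines Kupffer cells, was at -0.24, -0.26 and -0.59. The summed intensity of the Kupffer list was 57120 to 68920 in M8 pools and 87930 to 95460 in F8 pools. Of the stellate cell genes, 6 of 13 passed as lower in M8/F8 (median -0.24), and their defining marker Lrat was at -0.41. The summed intensity of that list was 95670 to 112000 in M8 and 124500 to 126600 in F8. The part of these cells in the ratio of Stab2 was not tested. The 10 endothelial genes themselves, Stab2 included, summed to 61940 to 64190 in M8 and 67010 to 72280 in F8, with pools that did not overlap, while by gene 6 had a ratio below 0 and 4 above 0 in M8/F8. A sum weighs each probe by its brightness. Clec4g and Stab2 were the brightest of the 10, with mean log2 levels of 14.49 and 13.93 in M8. The 33 further general endothelial genes summed to 80810 to 83120 in M8 and 85940 to 86470 in F8, again without overlap, while by gene 18 were below 0 and 15 above 0, with a median of -0.020. The 16 further sinusoidal genes summed to 72990 to 76860 in M8 and 76720 to 83060 in F8, with pools that overlapped.

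Kupffer and stellate cell genes were counted in the same 4 age comparisons. Of the 14 Kupffer cell genes, 7 passed as lower in M8/M3 (median -0.41) and 12 in M8/M4 (median -0.50), against 20.3% and 14.8% of all genes. In females 3 of 14 passed as lower in F8/F3 (median -0.12, with 3 genes above 0) and 4 in F8/F4 (median -0.23), against 16.6% and 10.7% of all genes. None passed as higher. Of the 14 stellate cell genes, 7 passed as lower in M8/M3 (median -0.33), of which 4 were called, and 5 in M8/M4 (median -0.30). In females 5 passed as lower in F8/F3 (median -0.24) and 4 in F8/F4 (median -0.20), and again none as higher. The summed intensity of the Kupffer list was 82980 to 91360 in M3 pools and 101000 to 103100 in F3 pools, and that of the stellate list 121300 to 134700 and 133200 to 152600. Both lists thus had lower sums in the 8 wk pools of each sex than in its 3 wk pools.

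All 12 mitosis genes passed as lower in all 4 age comparisons, and Mki67, a marker of cycling cells, was at -4.02 in M8/M3 and -3.16 in F8/F3. Of the erythroid genes that could be tested, 5 of 9 passed as lower in M8/M3 and 6 of 10 in F8/F3, while Alas2, which makes heme in red cells, was at 1.37 and -0.27. Of 16 hepatocyte genes, 4 passed as higher and 4 as lower in M8/M3, shares close to the 21.7% and 20.3% of all genes, with Alb, serum albumin, at -0.71. In F8/F3 4 passed as higher and 1 as lower (median 0.039). The arrays of Alb in M8/M3 differed (-1.10 and -0.33). Of the lymphocyte genes, 1 passed as higher and 4 as lower of 9 in M8/M3 (median -0.26), where Cd3e was at 0.43, and 2 as higher and none as lower in F8/F3 (median 0.10). Of 7 bile duct genes, 1 passed as higher and 2 as lower in M8/M3, where Krt19 was at -0.66, and 1 in each direction in F8/F3. The part of any of these cells in the age ratios of Lyve1, Cdh5, Pecam1 and Flt1 was not tested. All 8 defining markers (Clec4f, Lrat, Alb, Alas2, Cd3e, Krt19, Pf4 and Mki67) were well above background on every array.

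Likeness between the genes was described over the 14 arrays, some of which share pools. Across them the Pearson r of the log2 ratios of Cdh5 was 0.90 with Pecam1, 0.84 with Flt1, 0.84 with Emcn, 0.76 with Lyve1 and 0.72 with Tek, and it was -0.27 with Clec4g, -0.28 with Kdr, -0.30 with Stab2 and -0.34 with Stab1. The ratios of Stab2 had an r of 0.59 with Stab1, 0.57 with Clec4g and 0.21 with Kdr, and between -0.37 and -0.049 with the remaining 5 apart from Cdh5. Each r describes 14 points, linked through common pools, and carries no test. Of the 12304 other genes well above background on all arrays, the 5 most like Cdh5 were Ndufab1 (r = 0.99), Tubd1 (0.98), Tnfaip1 (0.97), Papss1 (0.97) and H2az1 (0.97), and the 5 most like Stab2 included Rps23rg1 (0.93), Tmem185a (0.91), Sf3b2 (0.88) and Bhmt2 (0.88). No endothelial gene of the 10 was among the nearest, and Pecam1 ranked 242 for Cdh5 and Stab1 ranked 899 for Stab2.

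None of the 10 genes differed between the sexes in its change with age by the interaction test, against 6.49% of all genes past the adjusted p for the change from 3 to 8 wk and 2.08% for that from 4 to 8 wk. The intervals were narrowest for Stab2, Cdh5 and Kdr and widest for Lyve1. For 9 of the 10 genes the 95% confidence interval of the fitted ratio lay within 1.5-fold of a ratio of 1 in M8/F8, in M4/F4 and in each age comparison, and for 10 of 10 in M3/F3. The share of all genes with such intervals was not counted.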

How the data were processed

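Gene expression was measured in liver RNA pools of CD-1 mice on 14 Agilent mouse arrays, 2 for each of 7 comparisons. The authors processed each scan with Agilent Feature Extraction (version 10.7.1.1 per the file headers), which subtracted background and normalized the dyes of each array by a linear and a LOWESS step. The deposited values used here are the log10 ratio of red over green for each spot and its processed intensity in each channel. The median and background intensity of each channel were used for the pool levels and for an alternative. The deposited series table held the same log10 ratios (largest difference 0). Groups, dyes and pools were taken from the labels. For M3/F3 the methods of the study give the dyes of both replicates the other way round, and the labels were used.

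Control spots and 0 to 10 non-uniform spots per array were left out, and replicate spots were averaged over 39429 probes, of which 26055 had a gene name through their RefSeq accession (19751 genes). The log2 of each ratio was taken and oriented as male over female or older over younger. limma 3.58.1 in R 4.3.3 fitted 7 comparisons and a dye term over all probes and 14 arrays, with 6 residual degrees of freedom, with Benjamini-Hochberg adjustment across probes and comparisons together, or within each interaction. A gene entered the counts where at least 1 group was well above background on both arrays, with the probe of highest mean signal. Levels are log2 intensities after loess and Aquantile normalization, averaged per pool. The test was checked on simulated data. The number of arrays limits the precision, and each comparison holds pools of several mice, so the spread between single mice is not seen.

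All 10 genes, the defining markers, at most 3 called genes of each other list with the largest ratio in M8/M3, and the 5 genes most like Stab2 and Cdh5 were named, and others are said to be chosen after their values were seen. Of the genes this rule names, 1 is not reported here. From the lists of lymphocyte, bile duct, erythroid, platelet, mitosis, hepatocyte, Kupffer and stellate cell genes only the defining markers are named. The genes and lists were chosen with earlier results of these data known. Alternatives were the dye term, group means, shared pools, blocks, normexp and loess (offset 50), thresholds, adjustment, the error-weighted average, probe choice and leaving out each array. The fit over probes well above background in a group was chosen after seeing the data. The Rosetta error model of the study was not run.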

Additional observations from a re-analysis of the deposited data

Results flagged for a closer look

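None of the 10 genes differed between the sexes in its change with age by the interaction test. Of the other genes named, Id1, a target of BMP signalling chosen after its values were seen, differed in both interactions. From 3 to 8 wk its log2 ratio was -0.65 in males and 0.40 in females, a difference of -1.06 (limma adjusted p = 0.0205), and from 4 to 8 wk -0.97 and 0.41, a difference of -1.38 (limma adjusted p = 0.0163), with the lower value in males on both array pairs. The erythroid gene Alas2 was at 1.37 in M8/M3 and -0.27 in F8/F3, a difference of 1.64 (limma adjusted p = 0.0134). It does not stand for its list. Of the 10 erythroid genes tested in that interaction, 1 other passed, with a difference in the opposite direction. In M8/M3 itself 5 of 9 erythroid genes passed as lower.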

How the results depend on the processing

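Over all alternatives, 2430 single values of the 10 genes were compared with those reported. Of these values 2398 stayed on their side of the thresholds, 18 lost and 14 gained a call, and no called value reversed. The reported fit called only 3 values, so the 18 losses all fall on those 3. Most of the 2398 are values that were uncalled in both fits and say little about how stable the calls are. Of the values called in neither setting, 46 changed sign. Without the ratio threshold 1 gene passed in each of M3/F3, M4/F4, M8/F8 and F8/F4, 4 in M8/M3, 4 in M8/M4 and 5 in F8/F3. At an unadjusted p below 0.0001 none was called in M8/M3, M8/M4 or F8/F3 (0 in each). With a replicate block, and with the slide as a block, 0 were called in M8/M4. Replicate numbers do not state a pairing of M8/M3 with F8/F3, and same-numbered arrays had deviations that correlated at 0.063 for that pair of comparisons and 0.211 for M8/M4 with F8/F4, so the block was not used in the reported fit. Medians moved to -0.008 in M3/F3 and 0.001 in M4/F4 after normexp and loess, to 0.001 in M4/F4 and -0.021 in M8/F8 with the probe of smallest standard error, and in F8/F3 to -0.225 with group means and -0.23 after normexp and loess; the cause was not tested. With each array left out in turn, the number called was 0 to 1 in M8/M3, M8/M4 and F8/F3, and the median ran from -0.099 to -0.028 in M3/F3, -0.073 to 0.012 in M4/F4, -0.078 to -0.05 in M8/F8, -0.271 to -0.137 in M8/M3, -0.189 to -0.068 in M8/M4, -0.253 to -0.204 in F8/F3 and -0.23 to -0.053 in F8/F4. The order of group levels under quantile normalization differed for Pecam1, Kdr and Tek. The differences of Lyve1 between the sexes did not pass, and with 2 arrays for each comparison its intervals were the widest of the 10 genes.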

Other observations

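The following genes of the angiogenic and sinusoidal lists were chosen after their values were seen. In the Notch pathway, which shapes arterial and sinusoidal endothelium, the receptor Notch1 rose from 3 to 8 wk in males (1.42 and 1.04 on the arrays, limma adjusted p = 0.00142) and females (1.19 and 1.05, limma adjusted p = 0.00199). The target genes Heyl and Hey1 fell in the same comparisons. Heyl had fitted log2 ratios of -1.20 in M8/M3 (limma adjusted p = 0.000401) and -0.80 in F8/F3 (limma adjusted p = 0.00164), and Hey1 had -0.65 (limma adjusted p = 0.0014) and -0.54 (limma adjusted p = 0.00284). Heyl was also higher in male than in female liver at 3 wk (0.40, limma adjusted p = 0.0226) and 4 wk (0.45, limma adjusted p = 0.0151).

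The sinusoidal BMP ligands Bmp2 and Bmp6, which act on hepcidin in hepatocytes, rose in M8/M3, by 0.39 (limma adjusted p = 0.0182) and 0.47 (limma adjusted p = 0.0274). In F8/F3 Bmp2 was at 0.28 (limma adjusted p = 0.0598), and the difference between the sexes in that change was 0.11 for Bmp2 (limma adjusted p = 0.706) and 0.073 for Bmp6 (limma adjusted p = 0.926), neither past the test.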
